A study of Mus musculus with 12 samples.

Results

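The 9 genes described here encode transcription factors that set the identity of monocytes and resident macrophages: Maf, Spi1, Irf8, Runx1, Cebpa, Cebpb, Klf2, Klf4 and Id3. They were chosen by symbol from the 18467 genes of the count table, and each was found there. The question was how their transcripts were distributed over 2 macrophage populations of mouse bone marrow, each taken from normal marrow and from marrow with metastases. The general population had been sorted on CD11b and F4/80, which many myeloid cells carry. The niche population had been sorted on VCAM1, CD163 and CCR3, and the series ties it to the erythroblastic niche, where macrophages are surrounded by maturing red cells. Metastatic marrow came from female Albino B6 mice given E0771, a mouse breast cancer line, through the caudal artery at 8 weeks of age, and normal marrow came from healthy control mice, whose age is not stated apart from this. Neither a transgene nor a gene deletion is named for any group. Each group held 3 libraries from different mice, called general normal, general metastatic, niche normal and niche metastatic below; the niche normal libraries are called A, B and C.

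In this family PU.1, encoded by Spi1, acts with C/EBP factors and Runx1 to commit progenitors to the myeloid lineage. Irf8 directs them toward monocytes and away from neutrophils, and Klf4 takes part in making the classical monocyte. In mature tissue macrophages, c-Maf restrains self-renewal and sustains the resident programme, and Id3 is known for its part in the identity of liver macrophages. These were bulk samples, in which fewer cells of a type and less RNA per cell cannot be told apart.

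Library totals ranged from 13687957 to 30332442 counts. Levels are given as CPM, relative to the library total after trimmed mean of M values (TMM) scaling, and the floor of detection, 3 counts, equalled 0.110 to 0.244 CPM. Macrophage markers, over 12 genes, summed to 5230 to 6733 CPM in niche normal and 2171 to 4657 CPM in niche metastatic libraries. They summed to 340 to 438 CPM in general normal and 296 to 420 CPM in general metastatic libraries. The list includes Vcam1 and Cd163, which encode sorting antigens of the niche population, so part of this difference was set by the sort. In niche normal libraries Vcam1 was at 2088 to 2248 CPM and Cd163 at 710 to 941 CPM. Adgre1, which encodes an antigen of the general sort, is in the list too. Timd4, the marker of long-lived resident macrophages, was at or under the floor in every general library. Neutrophil markers summed to 15600 to 25030 CPM in general and 10960 to 12900 CPM in niche libraries, over 14 genes, so their sum exceeded that of the macrophage markers in every library. Monocyte markers, over 12 genes, summed to 12670 to 13670 CPM in general normal and 17620 to 19420 CPM in general metastatic libraries. In niche normal libraries they summed to 4871 to 6139 CPM and in niche metastatic libraries to 8599 to 11050 CPM. These sums were thus higher in metastatic than in normal marrow in both populations, without overlap. Erythroid markers summed to 104 to 313 CPM in general and 915 to 2146 CPM in niche libraries, over 13 genes. Epor and Klf1 were at or under the floor in every general library, and Klf1 also in every niche metastatic library. B and plasma cell markers summed to 97.2 to 265 CPM in general and 1096 to 3925 CPM in niche libraries, over 12 genes. Cd79a, Vpreb3, Igll1 and Mzb1 were at or under the floor in every general library, and Igll1 also in every niche metastatic library. Stromal and endothelial markers summed to 4.95 to 25.1 CPM in general and 37.6 to 161 CPM in niche libraries, over 8 genes. In niche normal libraries Kitl had the largest mean of this list, 80.8 CPM. Lepr, Col1a2, Kdr and Cdh5 were at or under the floor in every one of those libraries. Dendritic cell markers, over 10 genes, summed to 22.7 to 44.0 CPM in general normal and 3.75 to 27.6 CPM in general metastatic libraries. In niche normal libraries they summed to 38.9 to 140 CPM, and in niche metastatic libraries to 39.8 to 81.0 CPM. Members of this list went both ways in normal marrow, and none was called by edgeR. Mean Zbtb46 was 0.0562 CPM in general and 35.8 CPM in niche libraries there, whereas mean Cd209a was 20.1 and 0 CPM. The part of these other cells in the results below was not tested.

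The regulatory DNA of Irf8 and Cebpa is shown first, since these were the members with the smallest p-values for a difference in the effect of metastasis between the populations. Each line gives the 250 bases before the RefSeq transcription start in GRCm38.p6, read in the direction of the gene. Capitals mark matches to the GAS element TTCNNNGAA, the STAT site through which interferon gamma acts, in the Irf8 promoter, and to the ETS core GGAA, the core of PU.1 sites, in the Cebpa promoter. Both strands were searched.
Irf8, chr8:120736108-120736357, plus strand: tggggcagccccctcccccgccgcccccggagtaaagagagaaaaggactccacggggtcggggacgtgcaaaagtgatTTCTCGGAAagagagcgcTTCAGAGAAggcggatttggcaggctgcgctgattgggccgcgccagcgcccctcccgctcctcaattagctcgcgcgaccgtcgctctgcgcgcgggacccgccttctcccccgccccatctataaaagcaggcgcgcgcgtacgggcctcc
Cebpa, chr7:35119043-35119292, plus strand: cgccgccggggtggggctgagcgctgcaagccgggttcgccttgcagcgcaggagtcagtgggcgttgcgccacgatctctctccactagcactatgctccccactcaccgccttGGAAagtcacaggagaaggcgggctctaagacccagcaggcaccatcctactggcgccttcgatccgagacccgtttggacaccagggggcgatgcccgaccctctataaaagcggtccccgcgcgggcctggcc
The Irf8 promoter shown held 2 GAS matches, the promoter of the other RefSeq start of Irf8 held 0, and a match to this element was present in 7.02% of 32851 promoters of the same length. The Cebpa promoter held 1 ETS core match, and that short core was present in 93.5% of promoters. RefSeq promoters were matched for 7 of the 9 members, those other than Maf and Spi1, with 9 start sites. The ETS core was matched at 9 of the 9 starts, the KLF box CACCC at 5 (52.0% of all promoters), the E-box CANNTG at 3 (66.2%), and the MAF site core TGCTGA at 1 (16.1%). The C/EBP site TTNNGNAA (36.9% of all promoters), the interferon regulatory factor element (GAAA, NN, GAAA in a row; 2.98%) and the RUNX site TGTGGT (14.1%) were matched at 0 starts. These letters describe the sequence only, because binding was not measured.

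Maf stood out among the members, with high transcript levels in niche macrophages of either marrow state. It encodes c-Maf, a basic leucine zipper factor, and lies on the minus strand at chr8:115682942-115707794 of GRCm38. Maf was at 31.2, 12.2 and 16.1 CPM in general normal libraries 1 to 3, and at 8.68, 7.68 and 10.2 CPM in general metastatic libraries 1 to 3. It was at 435, 394 and 444 CPM in niche normal libraries A to C and at 239, 350 and 187 CPM in niche metastatic libraries 1 to 3. Each of the 6 niche libraries exceeded each of the 6 general libraries, and the niche normal libraries, at 424 ± 26.7 CPM (SD, n = 3), had the smallest relative spread of Maf among the groups, an SD of 6.3% of the mean. In normal marrow Maf was 21.4-fold higher in niche than in general macrophages (95% interval 11.8 to 38.8; log2 fold change 4.42 ± 0.41, SE; edgeR adjusted p = 3.31e-06). The metastatic marrow gave a 29.2-fold difference in the same direction (95% interval 15.9 to 53.6; log2 fold change 4.87 ± 0.42, SE; edgeR adjusted p = 2.56e-06). The antisense gene Gm15655 overlaps Maf, and the sources used here do not give the strandedness of the counting. Its counts were between 0 and 23.4% of those of Maf in a library, and Maf and Gm15655 together were at 7.68 to 33.5 CPM in general and 187 to 485 CPM in niche libraries, still without overlap.

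**Figure D1:**
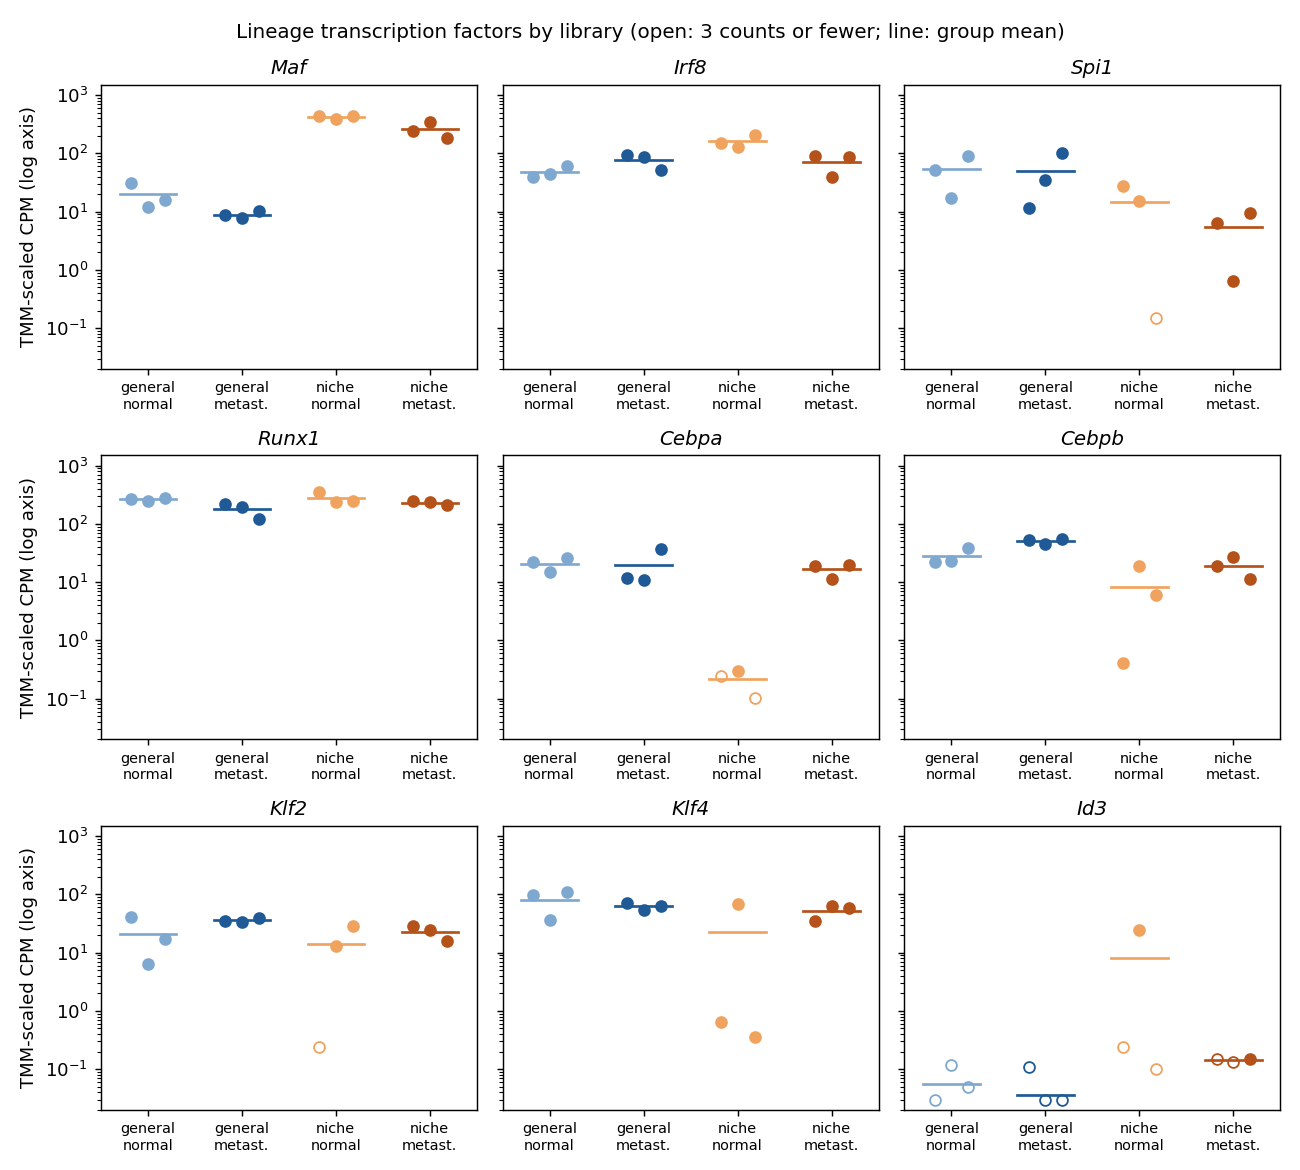
TMM-scaled CPM (log axis) of the 9 members in each library of the 4 groups, with points for libraries, lines for group means and open points for 3 counts or fewer; libraries with 0 counts of Id3 are drawn near the lower edge. Maf separates the 6 niche libraries from the 6 general ones, Cebpa lies under 0.3 CPM in the 3 niche normal libraries, and Klf4 and Id3 differ widely between niche normal libraries.

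Irf8 was higher in niche than in general macrophages of normal marrow, and not detectably different in metastatic marrow. It encodes a partner of PU.1 that is required for monocyte and dendritic cell development, and lies on the plus strand at chr8:120736358-120756694, where Gm20388 overlaps it on the same strand. Irf8 was at 39.4, 43.8 and 60.2 CPM in general normal and at 153, 131 and 206 CPM in niche normal libraries, and these groups did not overlap. The log2 fold change in normal marrow was 1.77 ± 0.46 (SE; 95% interval 0.80 to 2.74; edgeR adjusted p = 0.0478). This call was close to the threshold. It was lost in 5 of the 6 fits that left out 1 library of the comparison, remaining only without niche normal library B, with adjusted p-values of 0.0406 to 0.181 by edgeR, and with limma-voom (adjusted p = 0.136), while DESeq2 kept it (adjusted p = 0.00339).

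In metastatic marrow Irf8 was at 92.3, 86.5 and 51.7 CPM in general and at 89.4, 40.0 and 86.0 CPM in niche libraries, which overlapped. The log2 fold change of niche over general was -0.10 there (95% interval -1.04 to 0.84; edgeR adjusted p = 1.00). Within niche macrophages every metastatic library was under every normal one, by -1.18 ± 0.46 (SE) on the log2 scale, a difference that did not pass (edgeR adjusted p = 0.381). The effect of metastasis on Irf8 differed between the populations by -1.87 ± 0.64 (SE) on the log2 scale (95% interval -3.21 to -0.53), which did not pass either (edgeR adjusted p = 0.460). B cells also express Irf8, and the summed B and plasma cell markers given above were higher in niche than in general libraries of both marrow states; their part in the values of Irf8 was not tested.

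Spi1 encodes PU.1, the ETS factor required for macrophage development, on the plus strand at chr2:91082390-91115756. Spi1 varied widely between libraries of 1 group. It was at 52.1, 16.9 and 91.4 CPM in general normal, and at 11.8, 34.7 and 101 CPM in general metastatic libraries. In niche normal libraries it was at 28.0, 15.1 and 0.151 CPM, the last of these being 3 counts, and in niche metastatic libraries at 6.41, 0.656 and 9.50 CPM. The groups overlapped in normal marrow, where the log2 fold change of niche over general was -1.89 ± 1.34 (SE; edgeR adjusted p = 0.477). In metastatic marrow they did not overlap, and the log2 fold change was -3.15 ± 1.41 (SE; 95% interval -6.10 to -0.20; edgeR adjusted p = 0.552). Neither passed.

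Runx1, a factor of blood stem cell emergence and later myeloid differentiation, stayed within a log2 fold change of 0.56 in either direction in the 4 comparisons of groups. It lies on the minus strand at chr16:92601466-92826149, where the antisense gene Gm26626 overlaps it, and reads of the pair cannot be told apart without strand. Runx1 was at 268, 248 and 274 CPM in general normal libraries and at 219, 195 and 123 CPM in general metastatic libraries. It was at 360, 237 and 247 CPM in niche normal libraries and at 251, 238 and 210 CPM in niche metastatic libraries. The log2 fold change of niche over general was 0.10 in normal marrow (95% interval -0.50 to 0.69; edgeR adjusted p = 0.932) and 0.38 in metastatic marrow (95% interval -0.22 to 0.98; edgeR adjusted p = 0.952). In general macrophages every metastatic library was under every normal one, but the log2 difference, -0.56 ± 0.29 (SE), did not pass (edgeR adjusted p = 0.944).

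Cebpa encodes C/EBP alpha, which drives the granulocyte and monocyte progenitor stage, and is a gene of 1 exon on the plus strand at chr7:35119293-35121928. The antisense gene Gm45091 overlaps it, and reads of the pair cannot be told apart without strand. Its transcript was nearly undetected in niche macrophages of normal marrow and present in the other 3 groups. Cebpa was at 21.8, 14.7 and 26.0 CPM in general normal libraries and at 11.6, 11.1 and 37.6 CPM in general metastatic libraries. In niche normal libraries it was at 0.244, 0.298 and 0.1004 CPM, which were 3, 6 and 2 counts. In niche metastatic libraries it was at 18.6, 11.2 and 19.8 CPM, within the range of the general libraries.

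The pooled counts of Cebpa were 11 in niche normal, 1086 in general normal and 1159 in niche metastatic libraries. After scaling, the general normal level was 101 times the niche normal level (exact 95% interval 55.9 to 202), and the niche metastatic level was 79.1 times it (44.0 to 159). These intervals cover counting error only. The spread between libraries gave log2 fold changes of -6.57 ± 1.76 (SE; edgeR adjusted p = 0.0545) for niche over general in normal marrow, and of 6.23 ± 1.73 (SE; edgeR adjusted p = 0.268) for metastatic over normal in niche macrophages. Neither passed with edgeR, whereas DESeq2 called both (adjusted p = 6.21e-08 and 9.86e-07) and limma-voom called the first (adjusted p = 0.0450) and not the second (adjusted p = 0.101). The metastasis effect on Cebpa differed between the populations by 6.29 ± 2.12 on the log2 scale (SE; edgeR adjusted p = 0.460), and DESeq2 called it (adjusted p = 0.00110). All of these differences rest on the same 3 niche normal libraries.

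The pattern of Cebpa was shared by few genes. Of 4300 genes at 10 CPM or more in each of the 9 libraries outside niche normal, 10 were under 1 CPM in all 3 niche normal libraries, by limits chosen after the data were seen. They were Cebpa, E2f1, Elac1, Icmt, Lhfpl2, Mfsd10, Pi4kb, Rab11fip5, Sik2 and Zbtb39. The same count was 2 of 3655 genes for niche metastatic (Sema4f and Trpv2), 0 of 3671 for general normal and 0 of 3553 for general metastatic. A single library near 0 was also a feature of niche normal libraries at large: 19.6% of genes whose group mean reached 10 CPM had a library at 3 counts or fewer, against 6.73% in general normal, 1.34% in general metastatic and 6.87% in niche metastatic.

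Cebpb encodes C/EBP beta, which is induced in inflammatory and emergency myelopoiesis, and is a gene of 1 exon on the plus strand at chr2:167688915-167690418. Cebpb was at 21.8, 23.1 and 38.8 CPM in general normal libraries and at 53.2, 45.4 and 54.4 CPM in general metastatic libraries. It was at 0.406, 18.6 and 5.93 CPM in niche normal libraries and at 18.7, 26.9 and 11.4 CPM in niche metastatic libraries. Niche libraries were under general libraries in both marrow states, without overlap. The log2 fold changes of niche over general were -1.74 ± 1.15 (SE; edgeR adjusted p = 0.429) in normal and -1.43 ± 1.14 (SE; edgeR adjusted p = 0.989) in metastatic marrow, and neither passed. Tmem189 overlaps Cebpb on the opposite strand and had counts in every library, so the 2 genes may share reads.

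Klf2 and Klf4 encode Krüppel-like zinc finger factors. Klf2 is known for quiescence and trafficking of leukocytes, and lies on the plus strand at chr8:72319033-72321656, while Klf4 lies on the minus strand at chr4:55527143-55532466. Klf2 was at 40.3, 6.35 and 17.2 CPM in general normal and at 35.3, 33.1 and 38.9 CPM in general metastatic libraries. In niche normal libraries Klf2 was at 0.244, 12.9 and 28.8 CPM, the first being 3 counts, and in niche metastatic libraries at 28.7, 24.2 and 15.8 CPM. Klf2 groups overlapped in normal marrow, and in metastatic marrow the niche libraries were all lower (log2 fold change -0.64 ± 1.26, SE; edgeR adjusted p = 1.00).

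Klf4 was at 99.0, 36.3 and 109 CPM in general normal and at 72.3, 53.5 and 62.6 CPM in general metastatic libraries. In niche normal libraries A to C it was at 0.649, 67.6 and 0.352 CPM, and in niche metastatic libraries at 34.8, 62.8 and 57.8 CPM. Library B thus matched the other groups, whereas A and C held 8 and 7 counts. The log2 fold change of niche over general in normal marrow was -1.83 ± 1.18 (SE; edgeR adjusted p = 0.412) with all libraries and -7.35 without library B (edgeR adjusted p = 0.000363). For metastatic over normal in niche macrophages it was 1.18 (edgeR adjusted p = 0.787) with all libraries and 6.70 (edgeR adjusted p = 0.00620) without library B. DESeq2 gave no adjusted p for Klf4.

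Id3 encodes an inhibitor of E proteins that lacks a DNA-binding domain, on the plus strand at chr4:136143497-136145755. It was the only member that did not pass the filter on low counts. Id3 was at 24.0 CPM in niche normal library B, with 483 counts, and at 0.244 and 0.1004 CPM in libraries A and C. The other 9 libraries lay between 0 and 0.152 CPM, so the transcript was found above a few counts in 1 library of 12. In a fit with no filter its log2 fold change of niche over general in normal marrow was 7.04 ± 3.70 (SE; edgeR adjusted p = 0.321).

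Over the members as a group, 2 of the 8 tested were called by edgeR between niche and general macrophages in normal marrow, Maf and Irf8, both higher, where 2.47% of all tested genes were called. An unadjusted p under 0.05 was found for 3 members (19.0% of all genes), 3 were called by DESeq2 (14.2%) and 2 by limma-voom (1.69%), and the groups did not overlap for 4 (18.8%). In metastatic marrow 1 member was called by edgeR, Maf, against 0.831% of all genes. There 2 had an unadjusted p under 0.05 (8.60%), 1 was called by DESeq2 (3.73%), 1 by limma-voom (0.877%), and 4 did not overlap (17.2%). The median log2 fold change of the 8 members was -1.18 in normal and -0.28 in metastatic marrow, beside 0.19 and 0.04 over all genes tested. Thus Maf moved against the median of its own group in both marrow states. The comparisons share libraries, so their counts are not independent of each other.

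**Figure D2:**
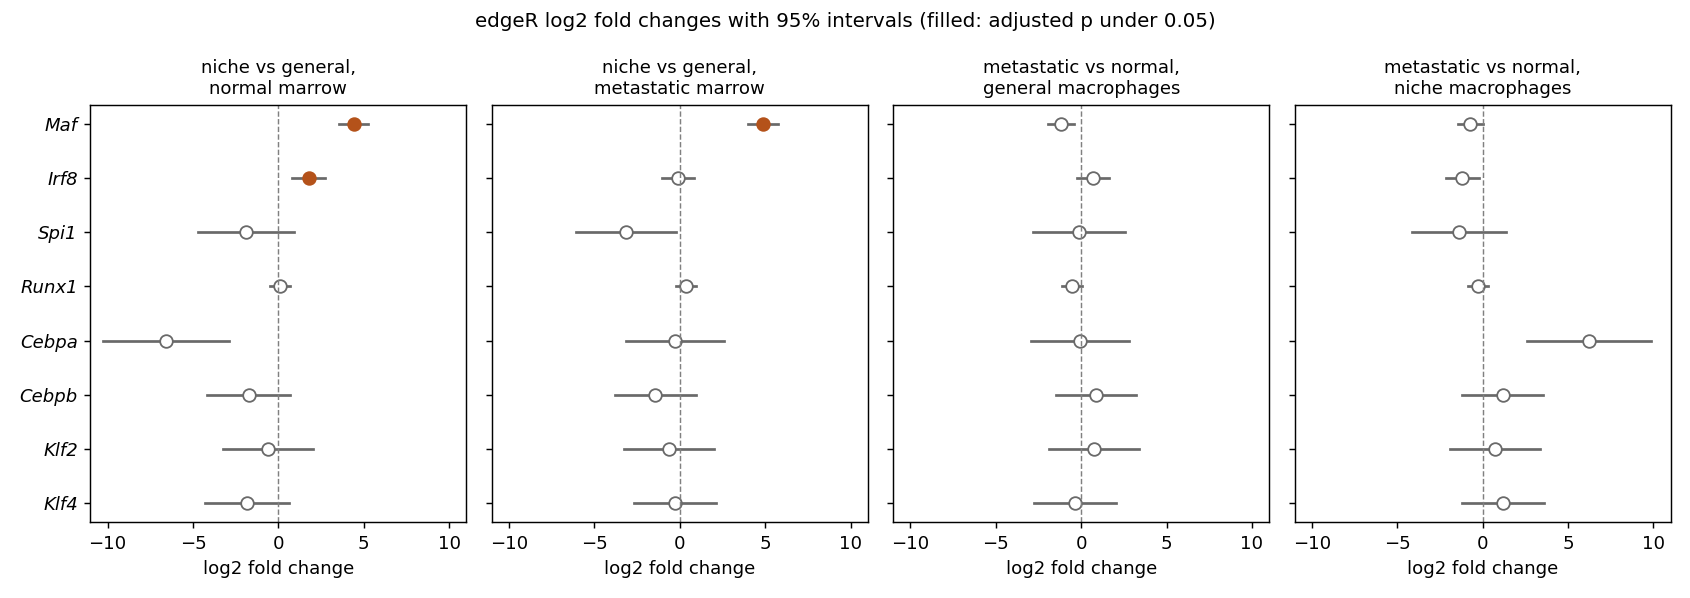
edgeR log2 fold changes of the 8 tested members with 95% intervals in 4 comparisons, filled where the adjusted p was under 0.05. Maf is filled in both comparisons of populations, Irf8 in normal marrow only, and the interval of Cebpa is the widest in normal marrow, from -10.25 to -2.89.

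No member passed edgeR's test for metastasis in either population. In general macrophages 0 of the 8 were called by edgeR (0.0155% of all genes), by DESeq2 (1.09%) or by limma-voom (0.0621%), and 1, Maf, had an unadjusted p under 0.05 (5.12%). Maf was lower in each general metastatic library than in each general normal library, a difference of -1.16 ± 0.36 on the log2 scale (SE; 95% interval -1.92 to -0.40; edgeR adjusted p = 0.944). The groups did not overlap for 3 members (12.9% of all genes): Maf and Runx1 were lower and Cebpb higher. The median of the 8 members was -0.09, beside -0.01 over all genes.

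In niche macrophages 0 of the 8 were called by edgeR (0.00776% of all genes) or limma-voom (0.109%), 1, Cebpa, by DESeq2 (7.41%), and 2, Irf8 and Cebpa, had an unadjusted p under 0.05 (12.7%). The groups did not overlap for 3 members (12.7% of all genes): Maf and Irf8 were lower and Cebpa higher in metastatic marrow. Maf had a log2 fold change of -0.71 ± 0.36 (SE; 95% interval -1.46 to 0.04; edgeR adjusted p = 0.402). The median of the members was 0.22, beside -0.17 over all genes. When the metastasis effects in the populations were set against each other, 0 members were called by edgeR (0% of all genes) or limma-voom (0%), 1, Cebpa, by DESeq2 (3.18%), and 2, Irf8 and Cebpa, had an unadjusted p under 0.05 (7.89%).

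Levels of different members were compared per kilobase of exon, on the scale of mean CPM per kilobase. In general normal libraries the order was Klf4 (26.7), Runx1 (21.9), Spi1 (19.8), Cebpb (18.6), Klf2 (11.5), Cebpa (7.91), Irf8 (6.78), Maf (2.41) and Id3 (0.0314), and only the last 2 steps lay beyond the spread of the libraries. General metastatic libraries ran from Cebpb (33.9) through Klf4 (20.6), Klf2 (19.4), Spi1 (18.2), Runx1 (14.9), Irf8 (10.9) and Cebpa (7.62) to Maf (1.08), with no overlap between Cebpb and Klf4 or between Cebpa and Maf. Maf was thus the lowest tested member in general macrophages of both marrow states.

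In niche libraries Maf was the highest member instead. Niche normal libraries ran from Maf (51.5) through Runx1 (23.4), Irf8 (23.1), Klf2 (7.57), Klf4 (7.50), Cebpb (5.53), Spi1 (5.35) and Id3 (4.53) to Cebpa (0.0812), with no overlap between Maf and Runx1 or between Irf8 and Klf2. Niche metastatic libraries ran from Maf (31.4) through Runx1 (19.4), Klf4 (17.0), Cebpb (12.6), Klf2 (12.4), Irf8 (10.2), Cebpa (6.27) and Spi1 (2.05) to Id3 (0.0801), with no overlap between Maf and Runx1, between Cebpa and Spi1 or between Spi1 and Id3. Within a library, the per-kilobase ratio of Maf to Runx1 was 0.0719 to 0.170 in general normal, 0.0574 to 0.121 in general metastatic, 1.76 to 2.62 in niche normal and 1.30 to 2.14 in niche metastatic libraries. That ratio does not depend on the scaling between libraries, and it did not overlap between the populations in either marrow state.

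Other transcription factors of macrophages and monocytes were read from a list of 43, of which 40 were in the table and 39 were tested. In normal marrow 1 was higher (Spic) and 2 were lower (Bach1 and Nfil3) in niche macrophages by edgeR (2.47% of all genes called), with a list median of -0.21, and in metastatic marrow 1 was higher (Spic) and 0 lower (0.831%), with a median of 0.34. Spic, the PU.1 relative required for iron-recycling splenic macrophages, was at 0.549, 0.593 and 4.95 CPM in general normal libraries and at 9.89, 3.30 and 3.07 CPM in general metastatic libraries. It was at 510, 234 and 193 CPM in niche normal libraries and at 197, 63.9 and 48.5 CPM in niche metastatic libraries. Its log2 fold changes were 7.24 ± 0.95 (SE; edgeR adjusted p = 0.000153) in normal and 4.25 ± 0.82 (SE; edgeR adjusted p = 0.0117) in metastatic marrow. Spic lost both calls with limma-voom (adjusted p = 0.0807 and 0.396), which kept those of Bach1 and Nfil3.

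Bach1, a haem-regulated repressor, was at 555, 602 and 513 CPM in general normal and at 222, 289 and 168 CPM in niche normal libraries (log2 fold change -1.30 ± 0.26, SE; edgeR adjusted p = 0.00863). Nfil3, a basic leucine zipper repressor, was at 44.2, 17.8 and 24.0 CPM in general normal libraries and had 9 counts in all in the 3 niche normal libraries. Like Cebpa, Nfil3 was present in niche metastatic libraries, at 11.9, 26.2 and 1.96 CPM. By pooled counts the general normal level of Nfil3 was 161 times the niche normal level (exact 95% interval 84.7 to 353), and its log2 fold change in normal marrow was -7.21 ± 1.75 (SE; edgeR adjusted p = 0.0317).

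Factors of other lineages were also counted, beside the same 2.47% and 0.831% of all genes called by edgeR. Of 10 tested granulocyte and progenitor factors, 1 was higher in niche macrophages of normal marrow, Myb. Its log2 fold change was 1.39 ± 0.34 (SE), with an edgeR adjusted p of 0.0347. In metastatic marrow 0 were called by edgeR, 1 had an unadjusted p under 0.05 (8.60% of all genes) and 1 was called by DESeq2 (3.73%). There Zbtb46 and Lmo2 had the smallest p-values, with log2 fold changes of 5.96 and 0.79 that did not pass (edgeR adjusted p = 0.535 and 1.00). Of 15 tested erythroid and lymphoid factors, 1 was higher in both marrow states, Pax5, the B cell commitment factor, with log2 fold changes of 4.10 (edgeR adjusted p = 0.0182) and 3.90 (edgeR adjusted p = 0.0474). With limma-voom neither Myb (adjusted p = 0.0571) nor Pax5 (adjusted p = 0.121 and 0.319) was called. Between populations Pax5 moved with the summed B and plasma cell markers given above, and is one of them. Within the niche population it did not. Pax5 was at 113, 136 and 319 CPM in niche normal and at 22.3, 32.5 and 62.1 CPM in niche metastatic libraries. The marker sums there were 1270 to 2344 CPM and 1096 to 3925 CPM. Metastasis changed 0 genes of these 3 lists past edgeR's test in either population. Of the macrophage and monocyte factors, 2 had an unadjusted p under 0.05 and were higher and 4 lower in general macrophages, and 6 higher and 3 lower in niche macrophages, while DESeq2 called 2 lower in general and 4 higher in niche macrophages. The shares of all genes at an unadjusted p under 0.05 were 5.12% in general and 12.7% in niche macrophages, and DESeq2 called 1.09% and 7.41%. Between populations DESeq2 called 5 factors of that list higher and 6 lower in normal marrow, where it called 14.2% of all genes.

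**Figure D3:**
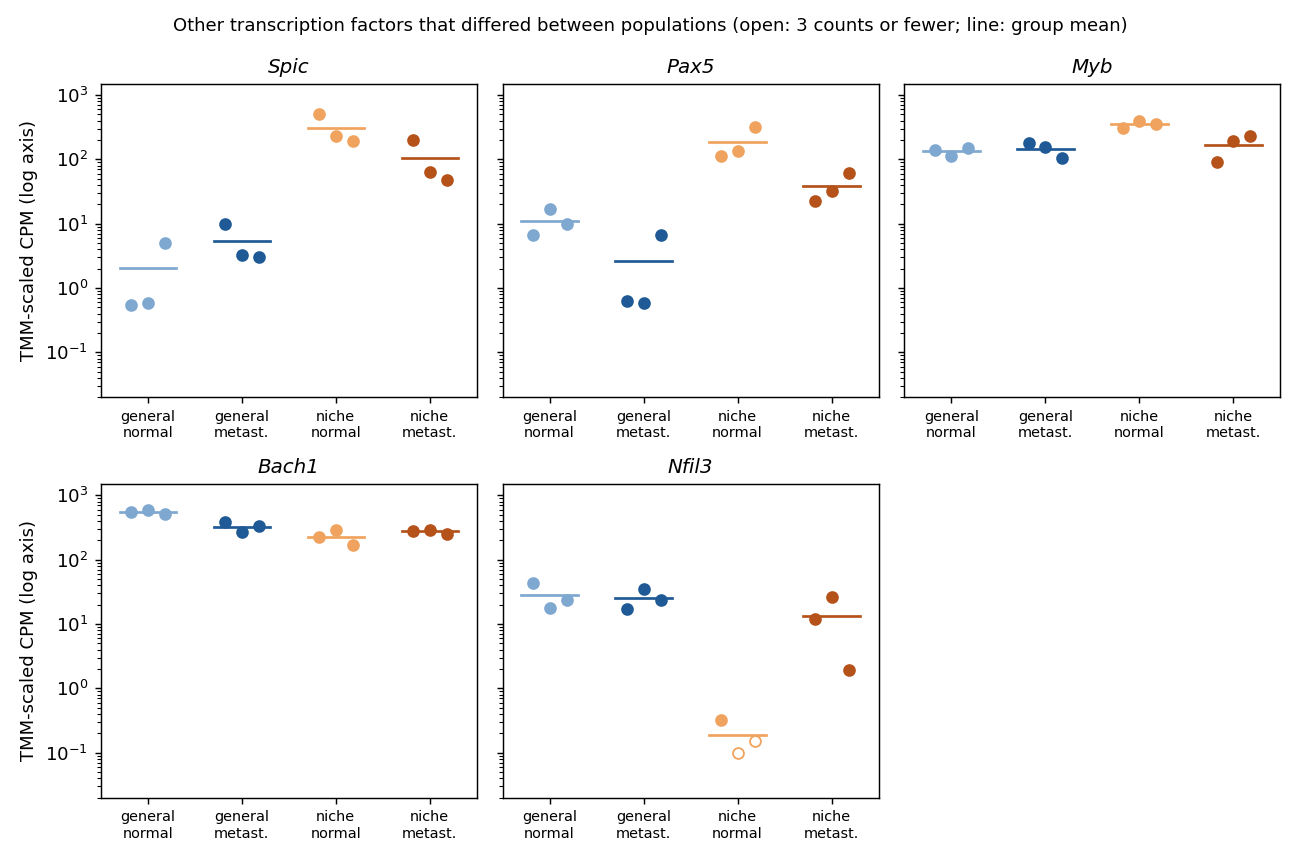
TMM-scaled CPM (log axis) in each library of the 5 listed factors called between populations, with points for libraries, lines for group means and open points for 3 counts or fewer. Spic is higher and Bach1 is lower in niche normal than in general normal libraries, and Nfil3 is close to the floor in niche normal libraries, as Cebpa is.

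Genes associated with each member in earlier work were then read from lists. Of 7 tested Maf-associated genes among 10 listed, 4 were called higher and 0 lower in niche macrophages of each marrow state (2.47% of all genes called in normal and 0.831% in metastatic marrow), with medians of 4.91 in normal and 4.11 in metastatic marrow, beside the 0.19 and 0.04 over all genes. The called genes were the mannose receptor Mrc1 (log2 fold changes 5.97 and 4.87; edgeR adjusted p = 3.52e-05 and 0.000260), the selenium carrier Selenop (2.56 and 2.89; edgeR adjusted p = 3.74e-05 and 1.79e-05), the haemoglobin scavenger receptor Cd163 (6.22 and 5.20; edgeR adjusted p = 0.000187 and 0.00115) and the complement subunit C1qb (4.54 and 3.91; edgeR adjusted p = 0.00670 and 0.0297). The complement genes C1qa (4.59 and 4.11) and C1qc (4.91 and 3.89) and the receptor gene Timd4, at or under the floor in the general libraries, did not pass in either state, with edgeR adjusted p-values of 0.0706 to 0.491, while DESeq2 called each of the 3 in both states (14.2% and 3.73% of all genes). Limma-voom kept Selenop in both states (adjusted p = 6.95e-05 and 0.000564), lost Mrc1, Cd163 and C1qb in both (adjusted p = 0.0556 to 0.288) and called Timd4 in both (adjusted p = 0.0265 and 0.0132; 1.69% and 0.877% of all genes). Cd163 encodes a sorting antigen of the niche population, so its direction was set by the sort. Cd163, C1qb and others of the list are also macrophage markers, whose sums are given above. For metastasis 0 of the 7 were called by edgeR in either population, 1 was lower in each at an unadjusted p under 0.05 (5.12% of all genes in general and 12.7% in niche macrophages) and by DESeq2 (1.09% and 7.41%), and limma-voom called 2 lower in niche macrophages (0.109%).

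Of 7 tested genes associated with Klf2 and Klf4, 4 were called lower and 0 higher in niche macrophages of each marrow state (2.47% and 0.831% of all genes called), with list medians of -2.35 and -1.75. Fibronectin Fn1 had log2 fold changes of -4.01 and -4.00 (edgeR adjusted p = 1.44e-05 and 1.97e-05), and the chemokine receptor Ccr2 had -2.57 and -2.99 (edgeR adjusted p = 7.76e-05 and 2.14e-05). The clotting factor subunit F13a1 had -2.35 and -3.07 (edgeR adjusted p = 0.000136 and 1.46e-05), and the monocyte antigen Ly6c2 had -1.78 and -1.75 (edgeR adjusted p = 0.000381 and 0.000784). These 4 genes are on the monocyte marker list as well, whose sums were lower in niche libraries, while Klf2 and Klf4 themselves were not called. Limma-voom lost Fn1 in both states (adjusted p = 0.187 and 0.0769) and Ccr2 in metastatic marrow (adjusted p = 0.0533), and kept F13a1 and Ly6c2 in both. The other members of the list did not pass with edgeR, although DESeq2 called Thbd lower in normal marrow (adjusted p = 0.000449). Thbd had -6.30 and -1.03, S1pr1 had 2.10 and 1.81, and Treml4 had 2.41 and -0.14, so they did not share 1 direction.

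Of 11 tested C/EBP-associated genes, 3 were lower and 1 higher in niche macrophages of normal marrow by edgeR (2.47% of all genes called). The granule peptide Camp (-1.73; edgeR adjusted p = 9.04e-05) and the calprotectin subunits S100a8 (-1.21; edgeR adjusted p = 0.00475) and S100a9 (-1.19; edgeR adjusted p = 0.0450) were lower, and they are neutrophil markers too. The lipopolysaccharide co-receptor Cd14 was higher (log2 fold change 8.34; edgeR adjusted p = 0.0426), a value that rested on 6 counts in the 3 general normal libraries; the pooled ratio was 316 (exact 95% interval 145 to 861). DESeq2 called 5 of the list lower and 1 higher there (14.2% of all genes), and limma-voom kept Camp alone of the 4 (adjusted p = 4.47e-05; 1.69% of all genes). In metastatic marrow Camp alone was called by edgeR in this list (-1.05; edgeR adjusted p = 0.0161; 0.831% of all genes called), with 6 lower and 1 higher at an unadjusted p under 0.05 (8.60%) and 2 lower by DESeq2 (3.73%), where the log2 fold change of Cebpa itself was -0.28 (95% interval -3.15 to 2.59).

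Of 14 tested Spi1-associated genes, 1 was called by edgeR in normal marrow (2.47% of all genes called). It was the phagocyte oxidase subunit Cybb, which was lower, by -0.90 ± 0.18 (SE) on the log2 scale (edgeR adjusted p = 0.00739). There 6 of the list had an unadjusted p under 0.05, all lower (19.0% of all genes in either direction), and DESeq2 called 3, all lower (14.2% of all genes). In metastatic marrow 0 were called by edgeR (0.831% of all genes), and 2 had an unadjusted p under 0.05 (8.60%). These were Csf2rb (-1.01, edgeR adjusted p = 0.250) and Cybb (-0.43, edgeR adjusted p = 0.523). DESeq2 called 0 of the list (3.73% of all genes) and limma-voom 1 (0.877%). Of 9 tested Irf8-associated genes, 0 were called by edgeR in either marrow state. In normal marrow 2 of them were higher and 1 was lower at an unadjusted p under 0.05 (19.0% of all genes), and DESeq2 called 1. The higher genes were Il18 (5.64; edgeR adjusted p = 0.194) and Pml (1.42; edgeR adjusted p = 0.204), and the lower was the chemokine receptor Cx3cr1 (-2.80; edgeR adjusted p = 0.263). In metastatic marrow 0 had an unadjusted p under 0.05 and DESeq2 called 0, and Pml had 0.91 (edgeR adjusted p = 0.739) and Nf1 0.77 (edgeR adjusted p = 0.830).

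**Figure D4:**
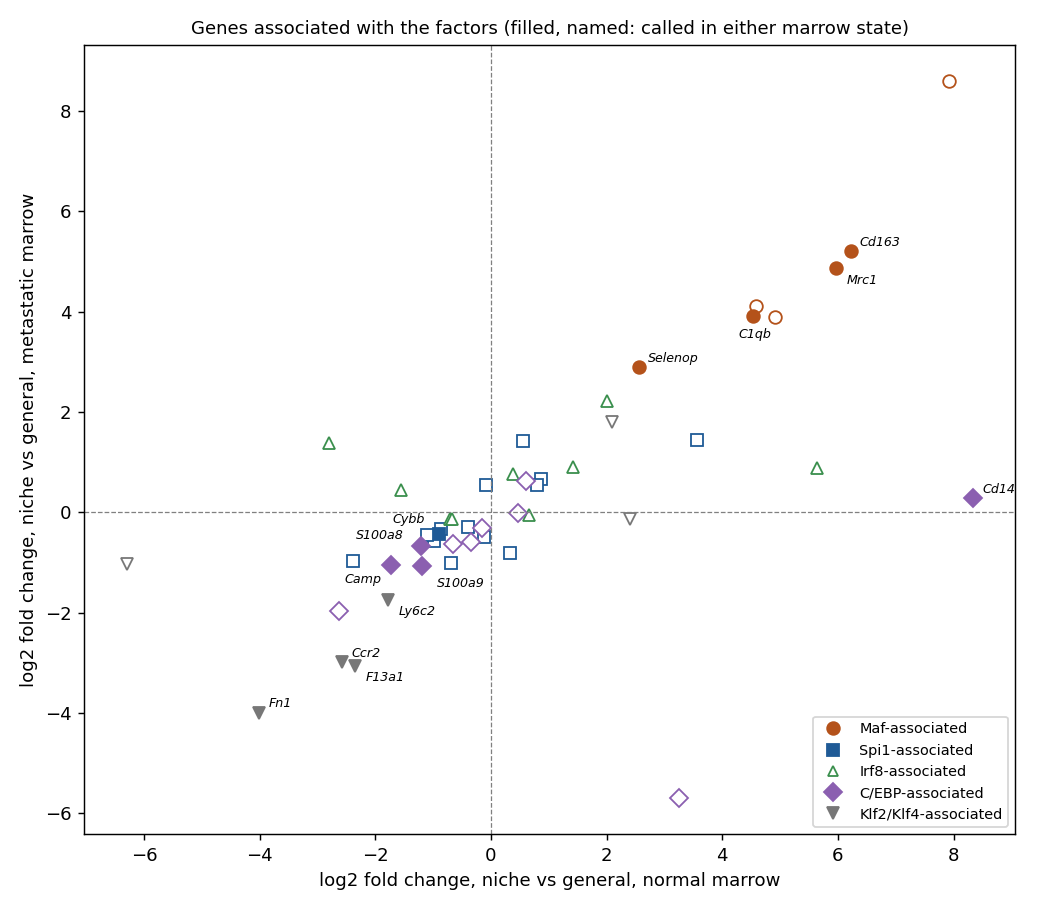
edgeR log2 fold changes of niche over general macrophages in normal marrow (x axis) and metastatic marrow (y axis) for genes associated with the members, filled and named where called in either state. The 4 called Maf-associated genes lie at the upper right and the 4 called Klf2/Klf4-associated genes at the lower left; the 2 axes use different libraries of each population.

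The genes whose log2 CPM followed each member most closely over the 12 libraries were found among the other genes whose mean reached 10 CPM (8144 for each member, 8145 for Id3), as a description with no test. Maf was followed by Car2 (Pearson r = 0.988), Snx24 (0.978) and Sdc3 (0.977), and Car2 is an erythroid marker here. Irf8 was followed by Kat2b (0.918), Rif1 (0.896) and Atp13a3 (0.893), and Spi1 by Mob3a (0.912), Bcap31 (0.912) and Sp110 (0.907). Cebpa was followed by Lhfpl2 (0.980), Zbtb39 (0.980) and Rab11fip5 (0.974), all 3 among the genes near 0 in niche normal libraries. Cebpb was followed by Pacsin2 (0.951), Ms4a6c (0.947) and Aspm (0.945), and Klf2 by Hnrnpab (0.950), Fkbp5 (0.949) and Chd7 (0.948). Klf4 was followed by Paqr7 (0.990), Cdca2 (0.987) and F730016J06Rik (0.985), and Runx1 by Gm42664 (0.904), Dleu2 (0.886) and Zeb2 (0.882). For Id3, which 1 library decides, the closest were Zfp207 (0.858), Pip4p2 (0.851) and Etfdh (0.822). The libraries share their group structure, which enters every one of these values.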

How the data were processed

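RNA was sequenced from 12 libraries of sorted bone marrow macrophages, 3 in each of 4 groups, grouped by the sorting antigens and marrow state in the labels. The titles call both sorts general macrophages, so the antigens decided the population. The authors deposited 1 table of expected counts, not normalized, per the file header and values (73.9% were whole). Partek, STAR 2.7.3a, DESeq2 1.40.2, R 4.3.1 and mm10 are named in the submitters' processing notes, without their roles, and the annotation and strandedness are not given in the sources used here. Column numbers of niche normal libraries differ from the titles, so these libraries are called A, B and C.

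Expected counts were rounded, genes were filtered with filterByExpr (12882 kept) and scaled by TMM, and 4 group means were fitted with edgeR 4.0.16 quasi-likelihood F-tests in R 4.3.3. The Benjamini-Hochberg adjustment ran over every tested gene, and an adjusted p under 0.05 is a call. The procedure was tested on simulated data for niche against general macrophages in normal marrow. At the gene-wise dispersion of these libraries it found 19 of 100 differences that were 4-fold. Where they were 16-fold it found 65 of 100, and 2 of its 86 calls were false. At a dispersion of 0.1 it found 96 and 100, with 13 false calls of 209. A difference that did not pass may thus have been missed. Standard errors came from the F statistic. Alternatives were DESeq2 1.42.0, limma-voom (limma 3.58.1), other scalings and filters, a replicate block and leaving out each library. Gene positions and exon lengths came from GENCODE M21 (GRCm38). Promoters came from RefSeq (GRCm38.p6).

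All 9 members are named. From each list every gene called between populations is named, up to 4 by p-value per comparison, or the 2 smallest p-values where none was called. The 3 most alike genes are named for each member. The members and lists were chosen with earlier results of these data known. Some genes of the lists are not reported here and were left out of their counts. Replicates were described as different mice, and pairs of libraries in a group differed by more than sampling noise (chi-square of 139 to 411 per degree of freedom). Floors and counting intervals cover counting error only, because several reads can come from 1 molecule.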

Additional observations from a re-analysis of the deposited data

How the results depend on the processing

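Maf was called in both comparisons of populations under every alternative run, with log2 fold changes of 4.17 to 4.90 in normal and 4.59 to 5.05 in metastatic marrow when 1 library was left out. In normal marrow the count of called members fell from 2 to 1 with RLE scaling, with haemoglobin, immunoglobulin and mitochondrial genes removed, with no filter and with only the 6 libraries compared, and was 1 in 5 and 3 in 1 of the fits with 1 library left out. Irf8 lost its call in those 5, and Klf4 gained 1 without niche normal library B. In niche macrophages the count for metastasis was 1 with DESeq2 and 0 to 1 with 1 library left out, against 0, and the same held for the difference of the metastasis effect. Both came from Klf4 in the fit without niche normal library B (6.70 and 7.07; edgeR adjusted p = 0.00620 and 0.0224) and from Cebpa with DESeq2. Signs turned only for differences that were not called. For the difference of the metastasis effect, Klf2 had -0.04, and 0.10 with RLE, 0.15 with library size, 0.049 with those genes removed, 0.10 with DESeq2, 0.78 with limma-voom and -0.89 to 1.05 with 1 library left out. Spi1 there had 0.27 with limma-voom, and with 1 library left out Maf had -0.038 to 0.70 and Cebpb -0.24 to 1.71. Between populations in metastatic marrow, Irf8 had 0.19 with library size and -0.32 to 0.19 with 1 library left out, and Cebpa -0.57 to 0.55. In normal marrow Klf2 had -1.70 to 0.25 and Runx1 -0.12 to 0.21. For metastasis in general macrophages, Cebpa had 0.026 with library size and -0.90 to 0.24 with 1 library left out, and Spi1 -1.22 to 0.51.

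The deviations of same-numbered libraries from their group means had 9 correlations between -0.007 and 0.034. With 3 libraries a group that differ widely, such values cannot decide whether libraries of 1 number share a mouse. With the replicate block, 1 member was called between populations in metastatic marrow and 0 for metastasis in general macrophages, as without it, and Spi1 had 0.045 in the latter. The block gave 125 called genes against 107 in metastatic marrow. Values at a few counts, such as those of Cebpa in niche normal libraries and of Id3 in 11 of the 12 libraries, carry a large counting error.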
